A study of Mus musculus with 12 samples.

Results

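The nuclear-encoded subunits of the respiratory chain were followed by gene name across 2 mouse strains and chronic restraint. Members were taken from the expression table by their names: Nduf followed by a, b, c, s or v and a number, Sdha to Sdhd, names starting with Uqcr, Cox4 to Cox8 and Atp5. Of 97 matching names, 12 ending in -ps (pseudogenes) were left out, so 85 members remained among 55678 gene names in the table. They comprised 37 genes of complex I, 4 of complex II, 8 of complex III, 19 of complex IV and 17 of complex V. Of these, 82 reached 1 TPM (an abundance corrected for transcript length and scaled to the same total in each library) in at least 3 libraries and were tested among 16423 genes. Cox7b2, Cox8b and Cox8c did not, and Cox8c was listed at 0 in every library. Ndufa4 was counted with complex I by its name, although its protein is now usually assigned to complex IV, and subunits with other names, such as Ndufab1 and Cyc1, fell outside the rule.

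The respiratory chain sits in the inner mitochondrial membrane. Complex I (NADH dehydrogenase) and complex II (succinate dehydrogenase) feed electrons to ubiquinone, complex III passes them to cytochrome c, and complex IV (cytochrome c oxidase) passes them to oxygen. Complexes I, III and IV pump protons, and complex V (ATP synthase) uses the proton gradient to make ATP, on which neurons depend heavily for ion pumping and synaptic transmission. Most subunits are encoded in the nucleus and imported, whereas a small set of core subunits of complexes I, III, IV and V is encoded by mitochondrial DNA.

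RNA of the medial prefrontal cortex was measured in 12 mice aged 9 to 10 weeks, 3 in each of 4 groups: C57BL/6JmsSlc (B6) controls, B6 mice after chronic restraint stress (CRS), BALB/cCrSlc (BALB/c) controls and BALB/c mice after CRS. Restraint lasted 6 h daily over 21 days, and controls were handled but not restrained. Both inbred strains were used without any transgene or deletion named in the labels, and every mouse went through behavioural testing before the tissue was punched out. Sex, litter, day of collection and sequencing batch were not given in the labels, so effects of these cannot be separated. Separate mice are the replicates, and p-values set group differences against the spread between mice within groups. The reads behind each library are unknown, because TPM keeps no depth.

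The members together took 2.16% to 2.77% of all TPM in a library. The 13 mitochondrially encoded subunits took 16.5% to 23.0%, and the noncoding RNA Bc1 took 8.68% to 13.5%. BALB/c CRS 12 stood apart with 3.97% of TPM in the ribosomal entry Rn18s-rs5, against 0.0307% to 0.169% in the other 11 libraries. Defining markers of cortical excitatory and inhibitory neurons were above 0 in the data, and so were those of other cells the punch could hold. The summed level of 9 striatal neuron markers ranged from 232 to 2961 TPM in the B6 controls and from 135 to 417 TPM in the BALB/c controls. That of 9 oligodendrocyte markers ranged from 2505 to 9447 TPM in the B6 controls and from 530 to 3046 TPM in the BALB/c controls.

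The split of the members' TPM between the complexes hardly varied from library to library. Complex I genes took 30.7% to 32.0% of it, complex II genes 2.23% to 2.56%, complex III genes 9.41% to 9.89%, complex IV genes 24.8% to 26.7% and complex V genes 30.4% to 31.2%. In B6 controls the summed level was 7580 ± 285 TPM for complex I, 586 ± 33.7 for complex II, 2348 ± 104 for complex III, 6344 ± 370 for complex IV and 7430 ± 324 for complex V (SD, n = 3). The same sums in BALB/c controls were 7287 ± 509, 546 ± 35.3, 2250 ± 195, 6244 ± 419 and 7183 ± 541 TPM (SD, n = 3). In controls the 2 strains' library values overlapped in every complex. After CRS the sums were 7903 ± 637, 597 ± 44.5, 2426 ± 272, 6400 ± 683 and 7751 ± 651 TPM in B6 (SD, n = 3), and 7085 ± 319, 559 ± 48.8, 2218 ± 121, 5957 ± 292 and 7028 ± 219 TPM in BALB/c (SD, n = 3). There the strains did not overlap for complex I (7511 to 8638 TPM in B6, 6762 to 7400 TPM in BALB/c) or complex V (7374 to 8502 and 6815 to 7253 TPM), while complexes II, III and IV overlapped. That separation is of TPM sums, which leave out the near-identical copies described below. Median-of-ratios scaling would divide BALB/c CRS 12 by 0.873 and the B6 CRS libraries by 1.00 to 1.10. Both complexes would then overlap between the strains.

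Levels of single subunits spanned 3 orders of magnitude even within 1 complex, as the plot of levels by complex shows. In complex I, Ndufa4 was the highest at 646 TPM (mean of 12 libraries), followed by the membrane-arm accessory subunit Ndufb9 at 392 TPM, and Ndufb4 was the lowest at 49.5 TPM. The catalytic core of complex I stood lower than many accessory subunits, with Ndufs1, which carries iron-sulfur clusters, at 87.0 TPM and the NADH-binding Ndufv1 at 161 TPM. In complex II the flavoprotein Sdha was highest at 218 TPM, and the membrane anchor Sdhd was lowest at 89.2 TPM. In complex III the hinge protein Uqcrh was highest at 475 TPM, and the Rieske iron-sulfur protein Uqcrfs1 was lowest at 115 TPM. Cox4i1 and Cox8a led complex IV at 1036 and 1022 TPM. In complex V the catalytic beta subunit Atp5b was highest at 1021 TPM, followed by the small membrane subunit Atp5md at 948 TPM.

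**Figure D1:**
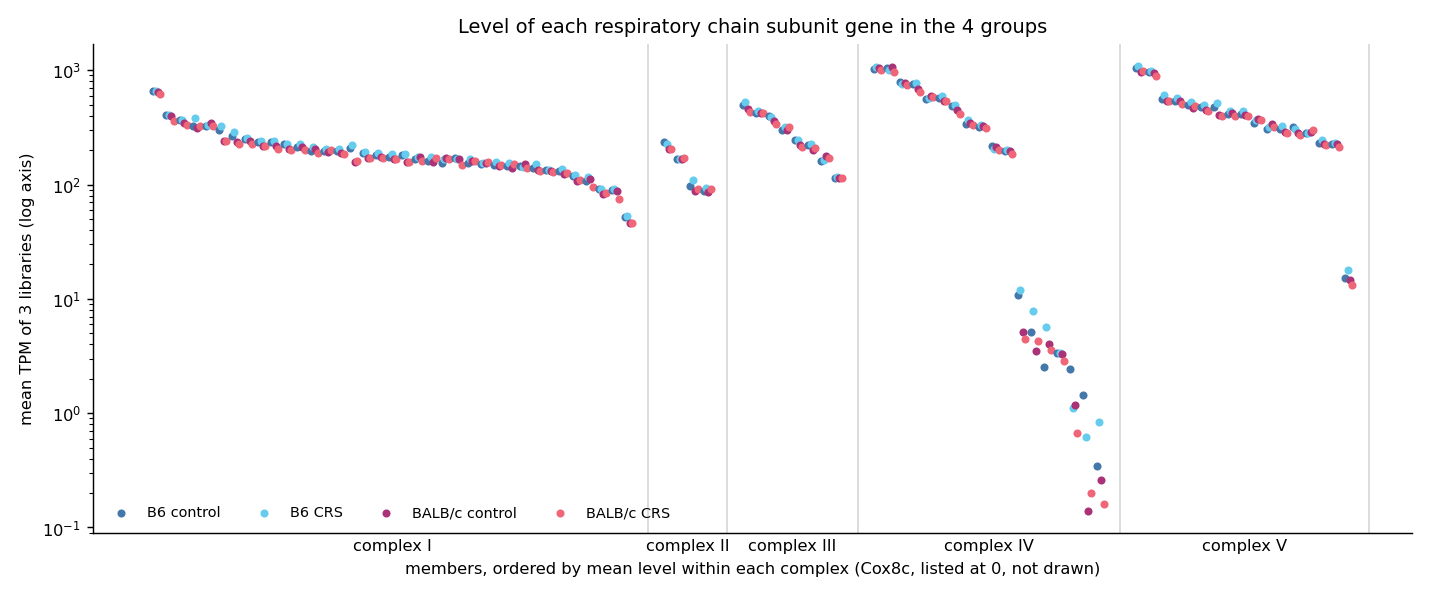
Mean TPM of 3 libraries (log axis) for each member in the 4 groups, with members ordered by level within each complex. Nearly all members lie between 40 and 1100 TPM with the 4 groups close together, while a tail of complex IV isoforms and Atp5g2 lies below 20 TPM.

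The tail of complex IV consisted mostly of isoforms known from other tissues. Several complex IV subunits have a widely expressed form and a form typical of muscle, lung or testis. Cox6a2, the heart and skeletal muscle form of subunit 6a, averaged 8.14 TPM against 769 TPM for the widely expressed Cox6a1. Cox7a1, also a muscle form, averaged 3.96 TPM against 322 TPM for Cox7a2. The lung form Cox4i2 averaged 3.21 TPM against 1036 TPM for Cox4i1, and the testis form Cox6b2 averaged 5.19 TPM against 576 TPM for Cox6b1. Cox6c2, which the GENCODE M21 annotation lists as a processed pseudogene although its name carries no -ps, was listed at 0 in 7 of 12 libraries and reached 7.24 TPM in B6 control 9.

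Some subunit genes have near-identical copies elsewhere in the genome, and how reads were shared between them bears on their levels. A comparison of transcripts from the GENCODE M21 annotation (build GRCm38) found a copy for 22 members and a copy that was itself tested for 10. ATP synthase holds a ring of identical c subunits, encoded by 3 genes whose mature proteins are the same: Atp5g1 averaged 302 TPM, Atp5g3 561 TPM and Atp5g2 15.2 TPM. The copy of Atp5g2, Gm10175, is 100% identical over 645 bases and averaged 202 TPM, so the level of Atp5g2 is uncertain. Ndufb4 at 49.5 TPM has a copy, Ndufb4c, that is 100% identical over 390 bases and averaged 326 TPM. With copies added, Ndufb4 would no longer be the lowest complex I member. These pairs, and those that follow, were chosen after their values were seen.

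For Atp5g1 and Ndufa12, the copy was listed in 1 strain and near 0 in the other. Gm10039 is a processed pseudogene at chr11:100361716-100362126 on the minus strand of GRCm38, and Atp5g1 itself lies at chr11:96068852-96075670 on the minus strand. Over 411 aligned bases, which hold all 408 coding bases of Atp5g1 before the stop codon, they differ at 1 base, G385A (the Atp5g1 base first, counted from 1 at the first base of its start codon). The coding bases 355 to 408 of Atp5g1 and the matching bases of Gm10039 are shown, from M21, because this is the only base that tells them apart within the aligned stretch. The capital marks the difference.
Atp5g1: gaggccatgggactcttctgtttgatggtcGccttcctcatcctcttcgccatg
Gm10039: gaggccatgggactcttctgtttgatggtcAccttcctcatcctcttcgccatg
Gm10039 was listed at 0 in all 6 B6 libraries. It read 147, 149 and 179 TPM in the BALB/c controls 5, 9 and 10, and 161, 172 and 154 TPM in the BALB/c CRS libraries 12, 13 and 15. The strains did not overlap, while control and CRS libraries overlapped in BALB/c.

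Atp5g1 itself read 268, 305 and 354 TPM in the B6 controls and 307, 318 and 248 TPM in the BALB/c controls, which overlapped. With Gm10039 added, the sum was 309 ± 43.3 TPM in the B6 controls and 449 ± 20.0 TPM in the BALB/c controls (SD, n = 3), a log2 difference of 0.55 (SE 0.13) with a limma adjusted p of 0.0363. After CRS the sum gave 0.45 (SE 0.13, adjusted p = 0.0595). So the direction read for Atp5g1 between strains depends on whether its copy is counted with it: without the copy the libraries overlapped and Atp5g1 was not called, and with it the sum was called higher in the BALB/c controls.

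Ndufa12, an accessory subunit of the complex I matrix arm at chr10:94198720-94221443 on the plus strand, showed the same layout. Its copy Ndufa12-ps lies at chr5:130188395-130188796 on the plus strand, inside the gene Rabgef1, and differs at 2 of 402 aligned bases, A135G and T414C (the Ndufa12 base first, counted from its start codon). Coding bases 105 to 165 around the first of these differences are shown, with the difference in capitals.
Ndufa12: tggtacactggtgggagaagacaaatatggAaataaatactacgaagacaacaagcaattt
Ndufa12-ps: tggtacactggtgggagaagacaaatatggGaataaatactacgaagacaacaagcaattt
Ndufa12-ps read 0 to 1.75 TPM in the 6 B6 libraries and 56.7 to 67.5 TPM in the 6 BALB/c libraries. Ndufa12 read 241, 258 and 256 TPM in the B6 controls and 240, 262 and 220 TPM in the BALB/c controls. The member's libraries overlapped between strains in controls, whereas the listed copy separated them in every library. With the copy added, the log2 difference was 0.24 (SE 0.08, adjusted p = 0.143) in controls.

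**Figure D2:**
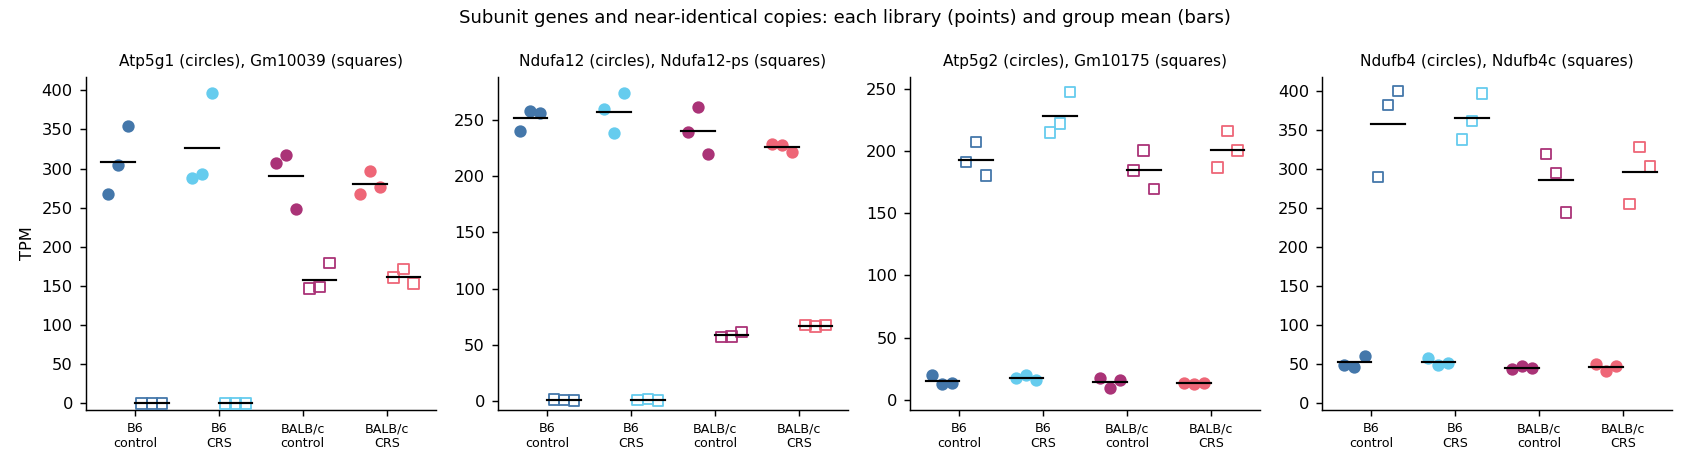
TPM of 4 members (circles) and of a near-identical copy of each (squares) in every library, with group means as bars. Gm10039 and Ndufa12-ps sit at or near 0 in B6 and at 147 to 179 and 56.7 to 67.5 TPM in BALB/c, while Gm10175 and Ndufb4c exceed their members in all 12 libraries.

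BALB/c was then compared with B6 in controls. Cox6a2 and Ndufc2 were lower in BALB/c, and no member was called higher, where a call means an adjusted p below 0.05 over all genes in limma. Among all genes tested, 3.37% were called lower and 1.36% higher, so 2 of 82 members called lower and 0 of 82 called higher is no more than the share among all genes. With TPM 61 of 82 members (74.4%) were lower, where 67.7% of all genes were. With median-of-ratios scaling 22 of 82 members were lower. The median log2 difference of the members with TPM was -0.04 against -0.10 for all genes. By complex the medians were -0.04 for complex I, -0.09 for II, -0.06 for III, -0.03 for IV and -0.04 for V. For 8 members all 3 BALB/c control libraries lay below all 3 B6 controls (background 18.7%), and for 2, Cox7a1 and Atp5j2, all 3 lay above (background 4.16%).

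Cox6a2 (chr7:128205435-128206387, minus strand, opposite the plus-strand gene Itgad, which overlaps it) had the largest difference of any member. It read 11.7, 8.52 and 12.5 TPM in the B6 controls 2, 3 and 9 and 6.00, 3.63 and 5.85 TPM in the BALB/c controls 5, 9 and 10. Each BALB/c control was below each B6 control. Whether the quantification used strand is not given in the sources used here, so reads from Itgad cannot be told apart with certainty. On the log2(TPM + 1) scale, which understates changes of low genes, the difference was -0.96 (SE 0.23, adjusted p = 0.0319). Cox6a2 made up 1.35% ± 0.148 of the summed Cox6a1 and Cox6a2 TPM in the B6 controls and 0.672% ± 0.205 in BALB/c controls (SD, n = 3), so it remained a minor isoform in both. The call was lost when any of B6 control 2, B6 control 9 or BALB/c controls 5, 9 and 10 was left out. The adjusted p then lay between 0.0531 and 0.111, with differences from -1.06 to -0.77. Over all genes the calls went from 777 to 1378 without B6 control 9, and to between 425 and 590 in the others of these runs.

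Ndufc2, an accessory subunit of the complex I membrane arm, lies at chr7:97400003-97407802 on the plus strand, with the pseudogene Gm16053 inside it. It read 188, 228 and 216 TPM in the B6 controls 2, 3 and 9 and 163, 170 and 141 TPM in the BALB/c controls 5, 9 and 10, again without overlap. The log2 difference was -0.41 (SE 0.10, adjusted p = 0.0440). The call was lost when any library other than B6 control 2, B6 CRS 14 or BALB/c CRS 12 was left out (adjusted p from 0.0559 to 0.197), with the difference between -0.46 and -0.33.

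After CRS the same strain comparison called 5 members lower and none higher, against 5.33% and 2.37% of all genes called lower and higher. These were Cox6a2 and Ndufc2 again, with Ndufb10, Ndufa1 and Atp5h. A total of 73 of 82 members (89.0%) were lower in BALB/c, where 58.7% of all genes were. The median log2 difference of the members was -0.14 against -0.06 for all genes. Without B6 CRS 14 it was -0.07 and 57 of 82 members were lower. By complex the median was -0.15 for complex I, -0.09 for II, -0.07 for III and -0.13 for both IV and V. In 29 of 82 members (35.4%) all 3 BALB/c CRS libraries lay below all 3 B6 CRS libraries, where 20.0% of all genes did, and in none did they lie above (background 9.29%).

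Cox6a2 read 9.62, 10.0 and 16.6 TPM in B6 CRS libraries 12, 13 and 14 and 4.51, 4.93 and 3.79 TPM in BALB/c CRS libraries 12, 13 and 15. The log2 difference was -1.24 (SE 0.23, adjusted p = 0.00673), and Cox6a2 was the only member called under every alternative setting tried for this comparison. Ndufc2 read 214, 209 and 237 TPM in B6 and 153, 168 and 163 TPM in BALB/c, a log2 difference of -0.45 (SE 0.10, adjusted p = 0.0247). Both genes thus separated the 2 strains completely in controls and again after CRS.

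Ndufb10, another membrane-arm accessory subunit (chr17:24722060-24724478, minus strand), read 301, 321 and 346 TPM in B6 CRS and 227, 250 and 242 TPM in BALB/c CRS. The log2 difference was -0.43 (SE 0.10, adjusted p = 0.0275). In controls its libraries did not overlap either, at 326, 288 and 284 TPM in B6 and 252, 258 and 214 TPM in BALB/c, but the difference of -0.31 was not called (adjusted p = 0.115). Atp5h, subunit d of the peripheral stalk of ATP synthase (chr11:115415689-115419962, minus strand), read 520, 489 and 536 TPM against 386, 418 and 383 TPM, a difference of -0.38 (SE 0.10, adjusted p = 0.0464). Ndufa1, an X-linked complex I subunit (chrX:37187588-37191163, minus strand), read 286, 275 and 298 TPM against 219, 237 and 218 TPM, a difference of -0.35 (SE 0.10, adjusted p = 0.0490). For these 3 genes the B6 and BALB/c CRS libraries were apart by a modest gap, and the adjusted p values of Atp5h and Ndufa1 were close to the threshold. Leaving out any 1 of the 6 CRS libraries ended the calls of Ndufb10, Atp5h and Ndufa1 (adjusted p from 0.0528 to 0.141), and without B6 control 3 or BALB/c control 5 those of Atp5h and Ndufa1 were also lost (0.0579 to 0.0702). Without BALB/c control 10 only that of Ndufa1 was lost (0.0595). The Ndufc2 call was lost without B6 CRS 12 or 14 or any BALB/c CRS library (0.0550 to 0.0805). The strain difference in controls and that after CRS were not shown to differ for any member, since the interaction called none.

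**Figure D3:**
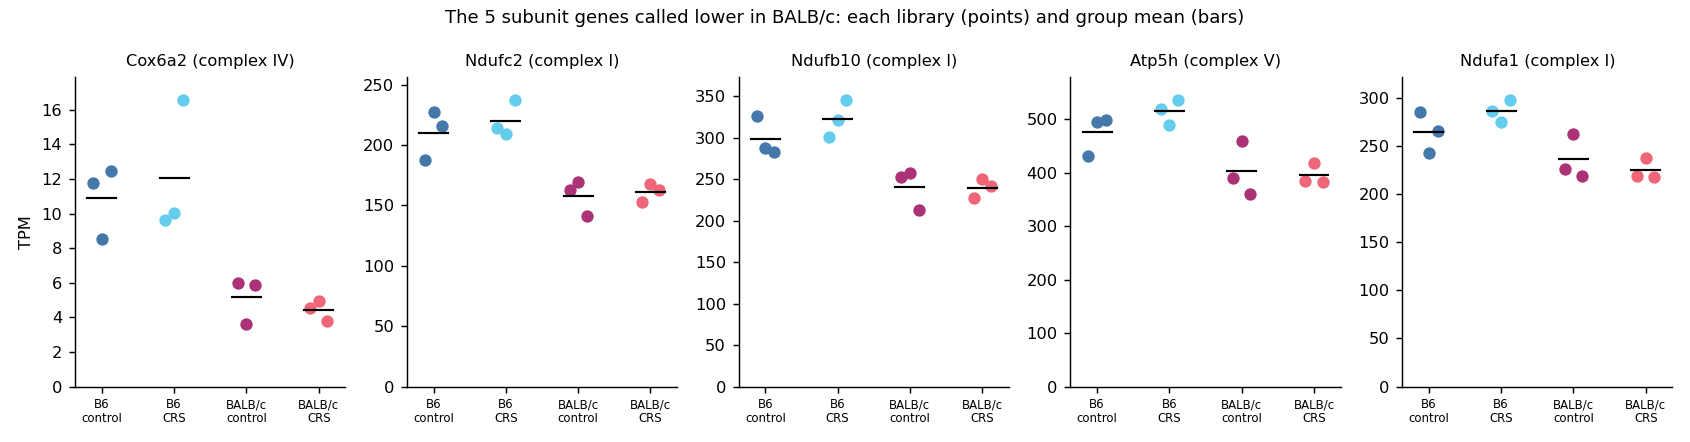
TPM in each of the 12 libraries for the 5 members called lower in BALB/c in at least 1 strain comparison, with group means as bars and each axis starting at 0. Cox6a2, Ndufc2 and Ndufb10 sit lower in all 6 BALB/c libraries than in any B6 library.

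Markers of other cells differed between the strains beside these results. All 9 striatal neuron markers were lower in BALB/c in both comparisons, and 8 of them were called after CRS, when their sum was 1031 to 2425 TPM in B6 and 153 to 203 TPM in BALB/c. All 9 oligodendrocyte markers were also lower, with sums after CRS of 2759 to 7648 TPM against 583 to 1485 TPM, and Sox10 was called in both comparisons. Of 8 astrocyte markers, all were lower, and Aldoc was called in both comparisons and Aqp4 in controls. Of 8 microglia markers, 6 were lower in BALB/c controls and 7 after CRS. Among them C1qb (-0.92, adjusted p = 0.000920) and C1qc (-0.83, adjusted p = 0.00135) were called lower in controls and again after CRS (-0.86, adjusted p = 0.00156 and -0.87, adjusted p = 0.000946). After CRS the choroid plexus markers Folr1 (-1.56, adjusted p = 0.00993) and Otx2 (-1.25, adjusted p = 0.0307) were called lower, and the excitatory neuron marker Neurod6 higher (1.02, adjusted p = 0.0238). In each comparison 4 of 5 choroid plexus markers were lower and 1 higher, and 7 of 8 excitatory neuron markers were higher and 1 lower. Of 8 inhibitory neuron markers, 6 were lower in BALB/c controls and 4 after CRS, where 67.7% and 58.7% of all genes were lower, and 0 were called. None of these lists had a marker listed at 0 in all libraries. With the oligodendrocyte marker level as a covariate, Cox6a2 was still called (-1.36, adjusted p = 0.0306 in controls and -1.65, adjusted p = 0.0103 after CRS), while Ndufc2, Ndufb10, Atp5h and Ndufa1 were not. For Ndufc2 the difference itself moved little, to -0.38 in controls (adjusted p = 0.426) and -0.41 after CRS (adjusted p = 0.377). After CRS it moved to -0.26 for Ndufb10 (adjusted p = 0.638), -0.32 for Atp5h (adjusted p = 0.570) and -0.23 for Ndufa1 (adjusted p = 0.725). Over all genes the covariate lowered the calls from 777 to 280 in controls and from 1264 to 252 after CRS. The part of the other cells' markers in these results was not tested, and in bulk tissue fewer cells of a type and less RNA per cell cannot be told apart.

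The promoters of called members are shown next. These genes were picked by the strain calls, and 73 of 82 members were lower in BALB/c after CRS. The windows come from the reference build alone, so they cannot show a sequence difference between the strains. RefSeq promoters of 300 bases on GRCm38.p6 (250 before the annotated start and 50 from it on) were found for 69 members, not including Cox6a2. Ndufc2 is shown by the rule for named genes, and Ndufb10, Atp5h and Ndufa1 were added after their values were seen, so that every called member with a window is printed. Capitals mark matches, on either strand, to GCGCANGCG (the core of nuclear respiratory factor 1, NRF1) or CCGGAAGT (the core of GABPA).
Ndufc2, chr7:97399753-97400052, plus strand: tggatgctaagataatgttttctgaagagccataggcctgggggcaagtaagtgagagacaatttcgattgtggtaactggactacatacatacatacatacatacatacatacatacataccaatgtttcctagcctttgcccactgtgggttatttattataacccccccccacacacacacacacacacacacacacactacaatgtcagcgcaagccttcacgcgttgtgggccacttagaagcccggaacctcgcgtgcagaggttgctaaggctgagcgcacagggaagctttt
Ndufb10, chr17:24724374-24724673, minus strand: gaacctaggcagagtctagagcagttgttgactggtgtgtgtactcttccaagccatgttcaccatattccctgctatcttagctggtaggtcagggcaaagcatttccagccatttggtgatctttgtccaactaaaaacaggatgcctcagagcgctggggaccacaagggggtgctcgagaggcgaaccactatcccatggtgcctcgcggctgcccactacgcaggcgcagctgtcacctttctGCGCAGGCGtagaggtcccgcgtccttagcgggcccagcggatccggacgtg
Atp5h, chr11:115419870-115420169, minus strand: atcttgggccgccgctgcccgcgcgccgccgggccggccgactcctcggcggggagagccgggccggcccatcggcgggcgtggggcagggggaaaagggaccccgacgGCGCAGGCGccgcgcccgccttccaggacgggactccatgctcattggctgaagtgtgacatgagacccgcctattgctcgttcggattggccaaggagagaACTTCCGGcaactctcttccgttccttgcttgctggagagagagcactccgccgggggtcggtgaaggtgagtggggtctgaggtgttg
Ndufa1, chrX:37191189-37191488, minus strand: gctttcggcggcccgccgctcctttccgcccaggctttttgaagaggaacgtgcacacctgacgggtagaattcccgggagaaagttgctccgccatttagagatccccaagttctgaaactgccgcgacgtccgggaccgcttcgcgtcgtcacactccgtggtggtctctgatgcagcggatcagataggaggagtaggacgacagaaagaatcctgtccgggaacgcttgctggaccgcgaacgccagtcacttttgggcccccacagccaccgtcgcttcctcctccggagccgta
NRF1 and GABPA are activators long known to act on genes of oxidative phosphorylation. The Ndufc2 and Ndufa1 windows held neither motif nor the YY1 motif AAGATGGCG, that of Ndufb10 held 1 NRF1 match, and that of Atp5h held an NRF1 and a GABPA match. Among all 69 members with a window, 20 (29.0%) had an NRF1 match, against 7.03% of 27025 genes and 14.2% of 11510 genes with a window that were tested here. YY1 letters were found in 7 members (10.1%), against 1.64% of all genes and 3.28% of tested genes. For GABPA the count was 5 members (7.25%), against 4.31% and 8.29%, so the members exceeded the tested genes for NRF1 and YY1 letters but not for GABPA. Matches of different motifs overlapped in 0 of the member promoters, and the median GC content was 57.5% in member promoters and 52.7% in all. By complex, NRF1 letters were found in members of all 5, among them Ndufa5, Ndufs5, Sdha, Sdhd, Uqcrc1, Cox6a1, Atp5c1 and Atp5g3. These counts describe letters in a window and no binding was measured.

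Restraint was compared with handling within each strain. No member was called in either strain, and among all genes 0% were called in B6 and 0.00609% (1 gene, no member) in BALB/c. At an unadjusted p below 0.05, 1 of 82 members was higher and 0 were lower in B6, and in BALB/c 0 were higher and 1 was lower. Of all 16423 genes, 466 were higher and 326 lower at that threshold in B6, and 394 and 103 in BALB/c. The intervals were narrow for abundant subunits: for all 76 members with a mean of at least 40 TPM, the 95% interval of the CRS effect stayed within 1.5-fold either way in B6 and in BALB/c, and for 57 of 76 in each strain it stayed within 1.25-fold. For the low isoforms of complex IV the intervals were wider, so larger changes there were not excluded.

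In B6, 70 of 82 members had a higher mean after CRS, where 8202 of all 16423 genes did. The members had a median log2 difference of 0.05 against 0.00 for all genes. The median was 0.05 in complex I, 0.04 in II, III and IV, and 0.06 in V. In 5 members all 3 CRS libraries lay above all 3 controls (background 4.63%): Cox7a1, Cox6b2, Ndufa3, Ndufb11 and Ndufs4. In 0 members did they lie below (background 3.70%). This lean rested on 1 library: without B6 CRS 14 the median was -0.02 and 52 of 82 members were lower.

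Cox7a1 had the lowest p. It lies at chr7:30184144-30186078 on the plus strand and read 3.46, 1.30 and 2.901 TPM in the B6 controls 2, 3 and 9 and 4.59, 7.56 and 4.77 TPM in B6 CRS 12, 13 and 14. The CRS libraries were all higher, by 0.93 on the log2(TPM + 1) scale (SE 0.26, unadjusted p = 0.00348), but over all genes the adjusted p was 1.00. In BALB/c the same gene read 4.03, 3.91 and 4.19 TPM in controls and 3.23, 4.75 and 2.79 TPM after CRS, which overlapped. Ndufa3, a membrane-arm accessory subunit, was next at 337, 331 and 306 TPM in the B6 controls and 373, 362 and 407 TPM after CRS (log2 difference 0.23, SE 0.11, adjusted p = 1.00). The lowest p values among members with a lower mean in B6 belonged to Atp5j, a peripheral stalk subunit (-0.07), and Cox7b (-0.09), neither called (adjusted p = 1.00).

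In BALB/c the lean was the opposite, with 58 of 82 members (70.7%) lower after CRS, where 37.4% of all genes were. The members had a median of -0.03 against 0.05 for all genes. The medians were -0.03 in complexes I, III and V, 0.05 in II and -0.07 in IV. In 1 member, Ndufs4, all 3 CRS libraries lay below all controls (background 2.02%), and in 0 above (background 5.36%). Without BALB/c control 9 the median was 0.01 and 37 of 82 members were lower, and without BALB/c control 10 it was -0.09 with 74 lower.

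Ndufs4 helps hold the NADH-oxidising part of complex I, and its loss in mice is a standard model of mitochondrial disease of the brain. It read 123, 115 and 98.9 TPM in the BALB/c controls 5, 9 and 10 and 95.7, 94.4 and 98.0 TPM after CRS, a log2 difference of -0.22 (SE 0.09, unadjusted p = 0.0348, adjusted p = 1.00). In B6 it read 108, 104 and 111 TPM in controls and 116, 114 and 118 TPM after CRS, a difference of 0.10. The groups did not overlap in either strain and lay in opposite directions, yet the interaction of -0.32 (SE 0.13, unadjusted p = 0.0291) had an adjusted p of 1.00. The other member named in BALB/c with a lower mean was Ndufb1 (-0.22, and -0.14 without BALB/c control 5). GENCODE M21 lists the gene matched to this name as Ndufb1-ps, a noncoding RNA of a bidirectional promoter. Named with a higher mean were the complex I core subunit Ndufs7 (0.12) and the complex III subunit Uqcrq (0.07, from 0.02 to 0.13 with 1 library left out). Ndufb1, Ndufs7 and Uqcrq all had an adjusted p of 1.00.

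The interaction asked whether CRS moved a member differently in the 2 strains. It called 0 members and 0% of all genes, with 0 members higher and 2 lower, Cox7a1 and Ndufs4, at an unadjusted p below 0.05. Of all 16423 genes, 281 were higher and 162 lower at that threshold. The median interaction was -0.09 for members and 0.05 for all genes, and without B6 CRS 14 it was -0.01 with 45 of 82 members lower. For Cox7a1 the interaction was -1.09 (SE 0.36, unadjusted p = 0.0110, adjusted p = 1.00). The lowest p values in the other direction belonged to Atp5d, the delta subunit of ATP synthase (0.07), and Sdha (0.04). Averaged over strains, CRS called 0 members and 0.00609% of all genes, no member had an unadjusted p below 0.05, and the median was 0.01. Of all 16423 genes, 595 were higher and 254 lower at that threshold, and the median of all genes was 0.02. The interval of the averaged effect lay within 1.25-fold for all 76 members with at least 40 TPM. Cox7a1 (0.39) and Ndufa3 (0.15) had the lowest p values among higher members, and Ndufs6 (-0.10) and Ndufb1 (-0.10) among lower ones, with adjusted p values from 0.946 to 0.969.

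**Figure D4:**
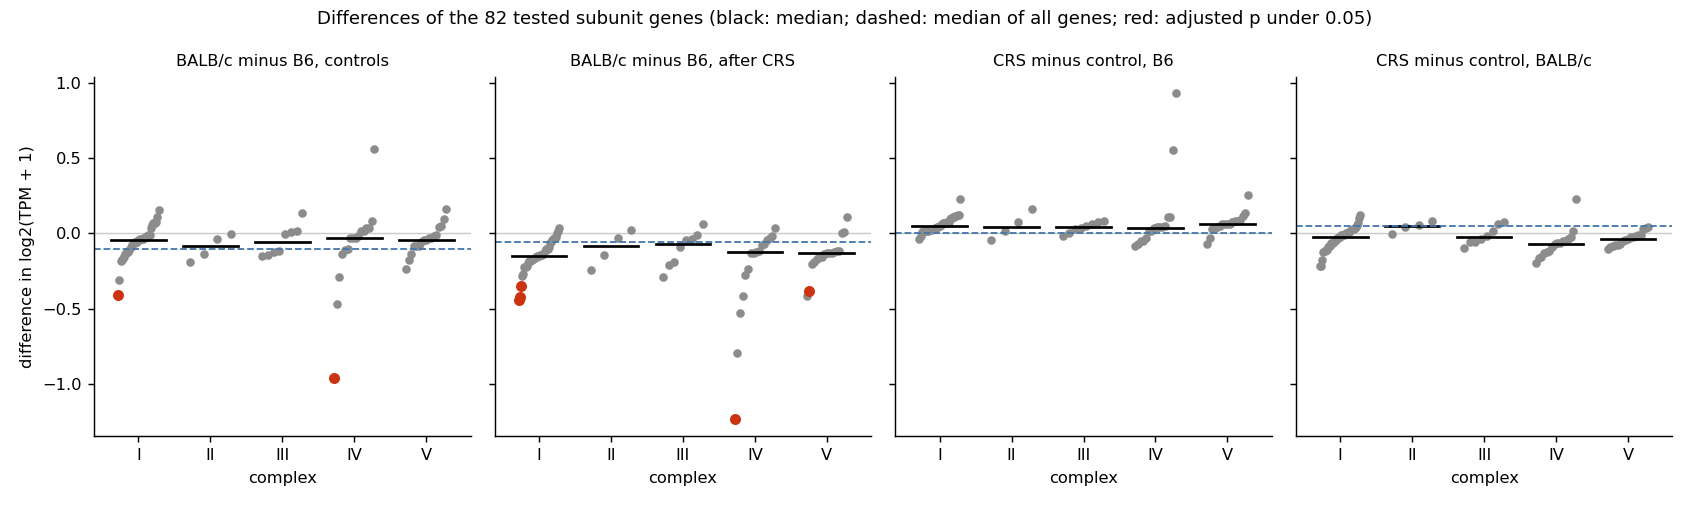
Log2(TPM + 1) differences of the 82 tested members by complex in 4 comparisons, with the median of each complex (black bar), the median of all genes (dashed line) and called members in red. Called members occur only in the strain comparisons, and the complex medians lie between -0.15 and 0.06.

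Members tended to be high or low together in a library. Within groups the median SD of a member on the log2 scale was 0.12, against 0.21 for all genes. Among genes with a mean of at least 40 TPM it was 0.11 for 76 members and 0.17 for all 3542 genes. Each library's median deviation from the genes' own means, over the 76 members with at least 40 TPM, was 0.22 in B6 CRS 14, 0.07 in B6 control 9 and 0.06 in BALB/c control 9. At the other end it was -0.14 in BALB/c control 10, -0.13 in BALB/c CRS 12 and -0.07 in BALB/c CRS 15. B6 CRS 14 was the highest of 12 libraries for 56 of these 76 members, and BALB/c control 10 was the lowest for 32 of them. B6 CRS 14 also had the lowest mitochondrial share of TPM, at 17.4%, and BALB/c control 10 the highest, at 23.9%. The part of that share in the members' levels was not tested beyond rescaling: with mitochondrial, Bc1 and ribosomal RNA entries removed and TPM rescaled, the control strain median moved from -0.04 to 0.05, and with median-of-ratios scaling to 0.08, with 22 of 82 members lower in BALB/c in place of 61. Median-of-ratios scaling moved the median of all genes from -0.10 to 0.00 in the same comparison, so relative to all genes the members were higher by 0.06 with TPM and 0.08 with median-of-ratios scaling. That gap did not hold throughout, since the members' median was -0.08 against -0.07 for all genes without BALB/c control 9, and -0.04 against -0.03 with no filter on low values. After CRS the members were lower than all genes by either scale, with medians of -0.14 against -0.06 with TPM and -0.07 against 0.00 with median-of-ratios scaling. Over all genes the split of calls was 224 higher and 553 lower in controls with TPM and 335 and 395 with median-of-ratios scaling, and after CRS 389 and 875 against 656 and 754. The downward lean of the members in controls thus flipped with the scaling, whereas Cox6a2 stayed lower and called under both.

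**Figure D5:**
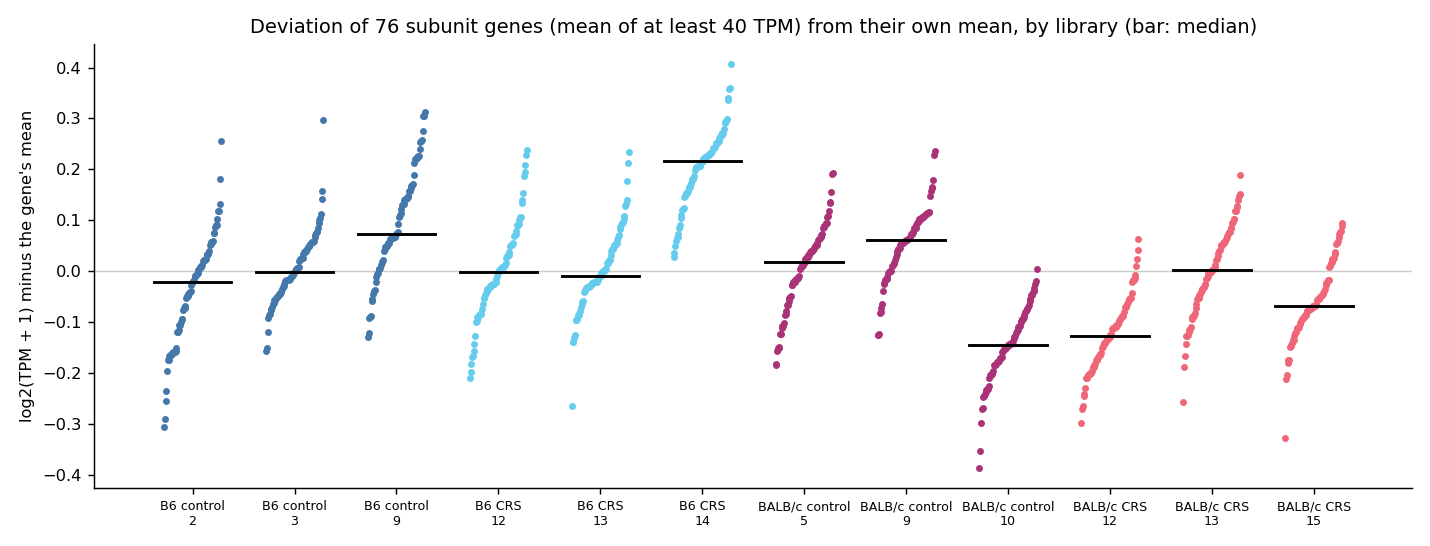
Deviation of each of 76 members from its own mean on the log2(TPM + 1) scale, by library, with the median as a bar. B6 CRS 14 sits highest at 0.22 and BALB/c control 10 lowest at -0.14, and the 3 B6 CRS libraries alone span -0.01 to 0.22.

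Other genes of the pathway were taken from lists rather than by how they moved. Assembly factors insert cofactors and join subunits. The shares of all genes to read these counts against were 3.37% called lower and 1.36% higher in controls, and 5.33% and 2.37% after CRS. Of 14 complex I assembly factors, 1 was called lower in BALB/c controls, Ndufaf7, a methyltransferase (-0.54, adjusted p = 0.0434), and 2 after CRS, Ndufaf1 (-0.40, adjusted p = 0.0465) and Ndufaf2 (-0.39, adjusted p = 0.0399). Of 6 complex III factors, Uqcc1, which is needed to make cytochrome b, was called lower in controls (-0.99, adjusted p = 0.00285). Of 19 tested complex IV factors, 0 were called in controls, and after CRS Cox18, which helps insert Cox2 into the membrane, was called higher (0.85, adjusted p = 0.00358) and Cox20, a Cox2 chaperone, lower (-0.68, adjusted p = 0.0137). Of 4 complex II factors, Sdhaf1 was called lower after CRS (-0.41, adjusted p = 0.0490). None of the 4 complex V factors, the 12 regulators of mitochondrial gene expression or the 13 citric acid cycle genes was called in either strain comparison.

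With TPM, most mitochondrially encoded partners of these subunits were higher in BALB/c. Of 13 tested, 12 were higher in controls with a median log2 difference of 0.21, and after CRS 11 were higher with a median of 0.09. The nuclear members had -0.04 and -0.14, but their control median was 0.05 to 0.08 under the other scalings given above, so no opposite direction can be read for controls. Those called were mt-Nd2, higher in controls (0.53, adjusted p = 0.0287), and mt-Nd3, lower after CRS (-0.93, adjusted p = 0.0120), both core subunits of complex I. The difference between the nuclear and mitochondrial sets was not tested. No gene of any of these lists was called in a restraint comparison or in the interaction.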

How the data were processed

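RNA from medial prefrontal cortex of 12 mice was sequenced from stranded mRNA libraries as paired 150-base reads, aimed at about 6 Gb per sample, per the labels' protocols. The submitters' processing notes name cutadapt 2.9, Salmon and build GRCm38, and the annotation is not given in the sources used here. The authors deposited a table of 147902 rows with a gene name and 1 column of TPM per library. No header or label names this unit, which was read from columns that all sum to 1000000 and hold values that are not whole. Depth per library is therefore unknown and precision rests on the 3 mice per group.

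TPM were summed per gene name (21277 names held more than 1 row). Names that reached 1 TPM in 3 or more libraries entered the test on log2(TPM + 1) in limma 3.58.1 under R 4.3.3, with 4 group means, an intensity trend and 8 residual degrees of freedom, after checks on simulated data. P-values were adjusted by Benjamini-Hochberg over 16423 genes and called below 0.05. A count test had been planned if the table held counts, and limma was planned for normalized values. Sums over members were described without a test. Near-identical copies were found with blastn 2.17.0 on GENCODE M21 transcripts (at least 95% identity over 80% of the shorter transcript, both at least 200 bases), and gene positions are from M21.

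By the rule for names, members could be named for the highest and lowest level in each complex or as complex IV and c ring isoforms. In the strain comparisons called members were named, and elsewhere the 2 of lowest p in each direction. From the lists, called genes were named, at most 2 per direction. The members and lists were chosen with earlier results of these data known. Alternatives covered the pseudocount, filters, scaling, an oligodendrocyte covariate, added copies, only the groups compared, a replicate block and leaving out each library.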

Additional observations from a re-analysis of the deposited data

How the results depend on the processing

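In controls, the 2 calls among members became 0 with no filter on low values, with only the groups compared and with the replicate block. They became 1, Cox6a2, with a mean of at least 5 TPM, with median-of-ratios scaling, with rescaling without mitochondrial, Bc1 and ribosomal RNA entries and with the oligodendrocyte covariate, and ranged from 0 to 2 with 1 library left out. After CRS, the 5 calls became 3 with no filter, with a mean of at least 5 TPM, with median-of-ratios scaling and with rescaling, and 1 with the replicate block and with the oligodendrocyte covariate, and ranged from 1 to 5 with 1 library left out. Adding near-identical copies made 3 calls in controls (Atp5g1 higher) and 5 after CRS. The cause of these losses was not tested.

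The members' median log2 difference in controls was 0.081 with median-of-ratios scaling and ranged from -0.08 to 0.02 with 1 library left out. Groups share only animal numbers (9 in controls, 12 and 13 after CRS), and same-numbered libraries did not deviate together (r = -0.24, -0.03 and -0.04 across genes). With 1 pair per number and no differently numbered pairs beside them, these values cannot decide whether a shared number marks anything in common. With the replicate block the median was 0.15 for CRS in B6, 0.069 in BALB/c and 0.11 on average. The block gives each shared number its own term, so libraries 9, 12 and 13 say nothing about the averaged CRS effect. That effect then rests on B6 CRS 14 and BALB/c CRS 15 against B6 controls 2 and 3 and BALB/c controls 5 and 10. For CRS and the interaction, 0 members were called under every alternative run.

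Among members named as not significant, the sign changed for Cox7b in B6 with the replicate block (0.036) and without B6 control 9 (0.043, in a leave-one-out range from -0.19 to 0.043), and for Ndufs6 on average with the replicate block (0.040). It changed for the interaction of Atp5d without B6 control 9 (-0.01) or B6 CRS 13 (-0.040, in a leave-one-out range from -0.040 to 0.24), and of Sdha with median-of-ratios scaling (-0.00849), without B6 control 9 (-0.01) or without BALB/c CRS 13 (-0.029, in a leave-one-out range from -0.029 to 0.15). The cause was not tested. Depth is unknown, so the counting error of levels near 1 TPM, such as that of Cox6c2, cannot be estimated here.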
